A study of Mus musculus with 7 samples.

Results

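Label 7 is 1 of 19 cluster numbers that the authors deposited, without names, for single cells of the embryonic mouse dorsal forebrain, the tissue from which the neocortex forms. All cells that carry this number were taken, 497 of 10261 cells or 4.84%. Against labels 4, 3 and 10, cells of label 7 held transcripts of 2 programmes side by side: those of intermediate progenitors, such as Eomes, and those of the mitotic cycle, such as Top2a. Over the stages 7 of 14 tested proneural and Notch genes of label 7 fell, against 0.72% of all tested genes. The list was chosen with earlier results of these data known, so this count is no test of it. Among the genes that fell were Neurog1, Nhlh1, Dll1 and Dll3 but not Neurog2. Gadd45g and Cdkn1c fell as well, while Zbtb20, Nfix and Cdk6 rose and the mitotic genes showed no called trend. The calls of Nhlh1, Gadd45g and Zbtb20 were kept with any 1 sample left out. Those of Dll1, Cdkn1c, Nfix and Cdk6 were lost without the earliest sample, and Neurog1 and Dll3 were too low to test without it. Neurog1, Dll1 and Dll3 were also too low to test without the sample of embryonic day 12.5.

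Intermediate progenitors, also called basal progenitors, arise from radial glia, the apical progenitors that line the ventricle, and divide away from it in the subventricular zone, mostly to give rise to glutamatergic neurons. The T-box factor Eomes (Tbr2) marks them. Proneural factors of the Neurog family switch on Notch ligands such as Dll1, which signal to neighbouring progenitors, and genes that prepare cell cycle exit. Genes needed for mitosis are read late in the cycle from promoters that often hold CCAAT boxes, bound by NF-Y, and a cell cycle homology region with the letters TTTGAA, bound by the MuvB complex together with Myb family members.

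The samples were dissected dorsal forebrain of CD-1 embryos, an outbred strain, taken at embryonic day (E) 10.5 or E12.5, at mid-gestation on E14.5 or E15.5, or late on E16.5 or E18.5, and the labels name no genetic change and no treatment. Every stage had 1 sample except E14.5, which had replicates 1 and 2. Cells were released with papain and captured in droplets with barcoded beads (Drop-seq), so that each count is a unique molecular identifier (UMI), 1 tagged mRNA molecule of 1 cell. How many embryos went into a sample is not given in the sources used here, so p-values reflect how much these samples vary, and part of that variation may be technical.

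Label 7 held 25 cells with 110728 UMIs at E10.5, 308 cells with 766394 UMIs at E12.5, 93 cells with 205987 UMIs in E14.5 replicate 1, 10 cells with 41296 UMIs in E14.5 replicate 2, 41 cells with 140795 UMIs at E15.5, 4 cells with 14103 UMIs at E16.5 and 16 cells with 51089 UMIs at E18.5. E12.5 thus gave 62.0% of them. Stage comparisons use the 6 samples with at least 10 cells, so that E16.5 enters only the shares of cells. A level of 3 UMIs, used as the detection floor, is 27.1 CPM (counts scaled to a total of 1000000 per sum) at E10.5, 3.91 at E12.5, 14.6 and 72.6 for the 2 replicates of E14.5, 21.3 at E15.5 and finally 58.7 at E18.5. Before the results, 2 features of the libraries need naming. In 5 of the 12 libraries, those whose names end in suffix 1, 518 cells share the first 11 of their 12 barcode bases with another cell of the library, and 23 of them carry label 7, 11 of these at E15.5. Of the libraries taken as E14.5 replicate 1, 1, named E14_2.1, was assigned by inference from its name. Replicate 2 is the library E14_2.2, and whether the 2 replicates are independent is not given in the sources used here. Values without the cells with alike barcodes or without E14_2.1 are given below where they were computed. The median mitochondrial share of a label 7 cell came to 6.22% at E10.5, 3.37% at E12.5, 1.61% and 1.96% at E14.5, 6.02% at E15.5 and finally 7.46% at E18.5. Scrublet called 10 of the 497 cells doublets, and 1 label 7 cell shares its full barcode with a cell of another library.

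The first question was how common these cells were at each stage. Label 7 made up 2.13% of all cells at E10.5 (1.39 to 3.13, the 95% exact Clopper-Pearson limits), 11.5% at E12.5 (10.4 to 12.8), 2.87% in E14.5 replicate 1 (2.33 to 3.51), 1.97% in E14.5 replicate 2 (0.950 to 3.6), 4.04% at E15.5 (2.92 to 5.45), 1.03% at E16.5 (0.282 to 2.63) and 1.25% at E18.5 (0.717 to 2.03). E12.5 stood above every other sample, and the intervals of both E14.5 replicates overlap. These intervals cover counting error only. Over 7 samples the share had a Pearson r of -0.42 with embryonic day (exact permutation p = 0.354, 2-sided, Benjamini-Hochberg adjusted over 4 relations 0.354) and a Spearman rho of -0.58 (p = 0.187). With the earliest and the latest sample left out, which lie farthest from the median day, r was -0.85 over 5 samples. The relation did not pass the test, so no trend over the stages was shown.

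A second share set the cycling cells against label 4, the larger Eomes-rich label. Of the cells with label 4 or 7, label 7 held 75.8% at E10.5 (57.7 to 88.9) and 56.3% at E12.5 (52.0 to 60.5). It held 19.7% (16.2 to 23.6) and 13.9% (6.87 to 24.1) in the replicates of E14.5, 35.3% at E15.5 (26.7 to 44.8), 12.9% at E16.5 (3.63 to 29.8) and 34.8% at E18.5 (21.4 to 50.2). The 2 earliest samples were the highest, and E15.5 and E18.5 lay above E14.5. The correlation with day was r = -0.69 (exact permutation p = 0.0885, adjusted 0.148) and rho = -0.59 (p = 0.170), and r was -0.73 with the earliest and latest left out. Leaving out E10.5 alone brought r to -0.33. With barcodes alike in 11 bases merged, label 7 at E15.5 came to 33 cells in place of 41, and r was -0.70.

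**Figure D1:**
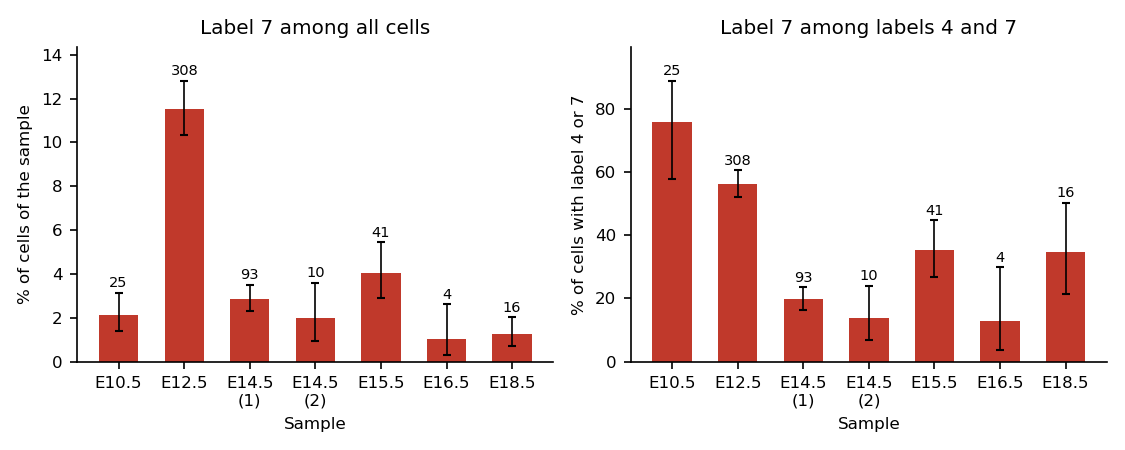
Share of label 7 among all cells of a sample (left) and among cells with label 4 or 7 (right), in percent, for the 7 samples; bars show the share, error bars the 95% exact Clopper-Pearson interval and the numbers above them the label 7 cells. The bar of E12.5 is the highest on the left at 11.5%, and E10.5 and E12.5 are the highest on the right at 75.8% and 56.3%.

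The name was then checked against 6 marker genes proposed for these cells, with positions from GENCODE vM21 on mm10. They are Neurog1 (chr13:56250478-56252163) and Eomes (chr9:118478212-118486132), transcription factors of neurogenesis; Gadd45g (chr13:51846678-51848468), a stress and growth arrest gene; Mybl1 (chr1:9667415-9700209), the A-Myb factor; Sgol2 (chr1:57995971-58025899), a shugoshin that protects centromeric cohesin; and Kif14 (chr1:136466343-136531511), a kinesin of cytokinesis. The labels came from clustering these same cells on their genes, so the levels of label 7 against other labels describe the label and carry no test. With every cell thinned to 1000 UMIs, which left out 76 of the 497 cells, Eomes was found in 59.4% of label 7 cells (54.5 to 64.1) and Gadd45g in 44.7% (39.8 to 49.5). Sgol2 was found in 24.9% (20.9 to 29.4), Neurog1 in 9.26% (6.67 to 12.4), Mybl1 in 8.79% (6.26 to 11.9) and Kif14 in 7.13% (4.86 to 10). Without thinning the shares were 75.7%, 63.0%, 41.9%, 16.9%, 15.7% and 14.9% at a median of 2161 UMIs per cell. In label 5, a Neurod6-rich label that should lack these genes and had a median of 2583 UMIs, the thinned shares were 0.449% for Eomes, 1.5% for Gadd45g, 0.449% for Sgol2, 0.299% for Mybl1 and 0% of 668 cells for Neurog1 and Kif14, which allows a share of up to 0.449%. Over all samples pooled, all 6 markers thus lay above this background in label 7. The stages differ, since 388 of the 668 label 5 cells came from E18.5 and 264 of the 421 thinned label 7 cells from E12.5. By sample, the thinned share in label 7 was 0% for Neurog1 in E14.5 replicate 2, E15.5 and E18.5. It was 0% for Kif14 in E14.5 replicate 2 and E18.5, so these samples did not differ from label 5 in those genes.

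Only part of this marker set told label 7 from label 4. Mybl1 and Sgol2 had their highest mean level over all labels in label 7, at 146 and 475 CPM over 6 samples. Label 10 came second at 62.1 and 415 CPM, over 6 samples that include E16.5 and not E10.5. Sgol2 was higher in label 10 in E14.5 replicate 2 (294 against 291 CPM) and at E18.5 (691 against 646 CPM). In the other shared samples it was higher in label 7. Kif14 was highest in label 10 at 131 CPM, with label 7 at 95.9 CPM. Eomes and Gadd45g were highest in label 4, at 1982 and 922 CPM, with label 7 second at 1028 and 665 CPM. Neurog1 also had its highest mean in label 7 (96.0 CPM), but that mean includes E10.5, where label 4 had 8 cells and was not measured. Over the 5 samples with both labels, Neurog1 was at 46.5 ± 77.8 CPM in label 7 and 102 ± 99.1 CPM in label 4 (SD, n = 5), lower in label 7 in 4 of 5 samples and at 0 in both at E18.5. The thinned shares of cells with Neurog1, 9.26% in label 7 and 10.5% in label 4 (8.20 to 13.1), overlap in their intervals.

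**Figure D2:**
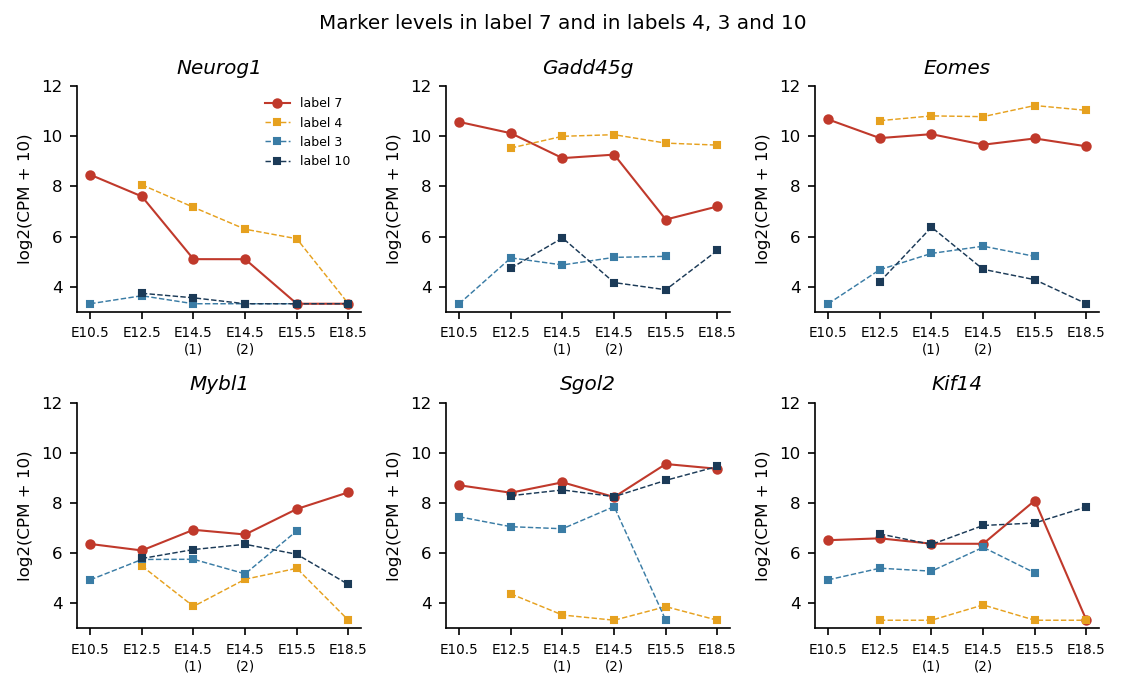
Level of the 6 marker genes as log2(CPM + 10) of the summed counts, in label 7 (red) and labels 4, 3 and 10 (dashed), over the samples with at least 10 cells of the label; each point is 1 sample. Eomes and Gadd45g are high in labels 7 and 4, Sgol2 and Kif14 in labels 7 and 10, and Gadd45g of label 7 drops below label 4 after E12.5.

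Against label 4, label 7 differed by its mitotic genes. Of 4184 genes with a mean of at least 50 CPM in either label, 151 or 3.61% were at least 2-fold higher in label 7 in every one of the 5 shared samples, and 2 or 0.0478% were at least 2-fold lower, on the scale of CPM + 10. Top2a, the DNA topoisomerase of dividing cells, was at 2397 CPM in label 7 and 137 CPM in label 4 at E12.5, at 2204 and 26.4 CPM in E14.5 replicate 1, at 1550 and 26.3 CPM in E14.5 replicate 2, at 3494 and 36.5 CPM at E15.5 and at 3014 and 16.1 CPM at E18.5. The groups do not overlap, and the median log2 ratio was 5.93. The next largest ratios belonged to Hmmr (5.72), a spindle assembly factor, Prc1 (5.67), which bundles the central spindle, Aspm (5.64), a spindle pole protein linked to microcephaly, Cenpf (5.60), of the kinetochore, Spc25 (5.49), of the Ndc80 complex, Sgol2 (5.29) and Nusap1 (5.23). Of the G2 and M phase list, 45 of 52 measured genes were at least 2-fold higher in every sample (median log2 ratio 3.80, against -0.08 over all 4184 genes). The counts were 10 of 46 for the S phase list (median 1.67), 13 of 18 for mitotic kinesins and cytokinesis (3.94) and 16 of 28 for cohesin, shugoshin and spindle checkpoint genes (2.74).

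Intermediate progenitor genes lay lower in label 7 than in label 4, with a median log2 ratio of -0.87 over 18 listed genes, though none was at least 2-fold lower in all 5 samples. Eomes was at 910 ± 127 CPM in label 7 and 1910 ± 321 CPM in label 4 (SD, n = 5) and lower in label 7 in 5 of 5 samples. The same held for Neurog2 (600 ± 214 against 1096 ± 188 CPM) and for Btg2, an antiproliferative gene of neurogenic divisions (134 ± 78.0 against 320 ± 43.9 CPM). Insm1, a zinc finger factor that drives the formation of basal progenitors, went the other way, at 191 ± 73.8 CPM in label 7 and 80.7 ± 35.1 CPM in label 4, higher in label 7 in 5 of 5 samples. Among the genes lowest in label 7 against label 4 were Dpysl4 (median log2 ratio -2.53), Ddit4 (-2.38), a stress-induced inhibitor of mTOR signalling, and Cdkn1c (-1.62), the cyclin-dependent kinase inhibitor p57. The neuron list had a median log2 ratio of 0.03 over 32 genes.

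Against labels 3 and 10, in which Sox2 and Top2a were both high, label 7 differed by genes of the progenitor type. Label 7 was at least 2-fold higher than label 3 in every shared sample at 55 of 4116 genes (1.34%) and lower at 37 (0.899%). It was higher than label 10 at 58 of 4135 genes (1.40%) and lower at 64 (1.55%). Of the intermediate progenitor list, 12 of 18 genes were at least 2-fold higher than in label 3 (median log2 ratio 2.81) and 10 of 18 higher than in label 10 (2.63). Eomes was at 1617, 962, 1073, 799 and 952 CPM in label 7 and at 0, 15.6, 30.2, 39.0 and 27.0 CPM in label 3 at E10.5, E12.5, both replicates of E14.5 and E15.5. The groups do not overlap. Neurod1, a bHLH factor downstream of Eomes and the Neurog genes, had a median log2 ratio of 5.23 against label 3 and 4.69 against label 10. Other genes among the 8 highest were Gadd45g (4.26), Sstr2 (3.95), Myt1 (3.86), Mfng (3.69) and Neurog2 (3.58) against label 3, and Neurod6 (4.85), Neurod2 (4.22) and Srrm4 (3.88), a neuronal splicing factor, against label 10.

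Radial glia genes were the other face of this contrast. Of 25 listed genes, 12 were at least 2-fold lower in label 7 than in label 3 in every sample (median log2 ratio -1.72) and 16 lower than in label 10 (-1.97). Ednrb, the endothelin receptor of radial glia, was at 11.7 CPM in label 7 at E12.5 and at 0 in the later samples, against 250, 176, 230, 212 and 337 CPM in label 10. Tnc, an extracellular matrix glycoprotein, was at 0 in label 7 in all 5 samples and between 3.34 and 859 CPM in label 10. Id3, an inhibitor of bHLH factors, had a median ratio of -3.34 against label 3 and -4.59 against label 10, and Sparc, Mt1 and Ttyh1 were among the 8 lowest in both comparisons. Sox2 and Pax6, the stem cell factors of radial glia, were lower but present: Sox2 was at 287 ± 54.3 CPM against 781 ± 241 CPM in label 3, and Pax6 at 165 ± 63.4 against 428 ± 122 CPM (SD, n = 5).

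The cell cycle lists, far higher in label 7 than in label 4, lay near the levels of labels 3 and 10. The G2 and M phase list had a median log2 ratio of 0.51 against label 3 and -0.31 against label 10, and the S phase list -0.30 and 0.59. Of the G2 and M list 1 gene was at least 2-fold higher than in label 3 in every sample, and of the S list 2 genes were higher than in label 10. Mitochondrial, ribosomal, haemoglobin and sex-linked genes and unnamed models were left out of the next count. None of the rest was at least 2-fold higher in label 7 than in all of labels 4, 3 and 10 in every shared sample. Mybl1 and Insm1 were higher in label 7 than in labels 4, 3 and 10 in every shared sample, by smaller margins in part. Mybl1 was at 58.7, 112, 96.9, 206 and 333 CPM in label 7 from E12.5 on, at 34.8, 4.66, 21.0, 32.0 and 0 CPM in label 4 and at 45.1, 60.5, 71.5, 51.9 and 16.8 CPM in label 10. Its margin over label 10 was small at E12.5.

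Promoters of 3 of the 8 mitotic genes with the largest ratios against label 4 are shown beside those of the neurogenic markers Eomes, Gadd45g and Neurog1, which labels 7 and 4 share. Each is the 150 bases before the RefSeq start on GRCm38.p6, read in the direction of the gene. The 3 were picked after the motif counts were known, from those whose window overlaps no exon in GENCODE vM21, which leaves out Prc1, Aspm, Sgol2 and Nusap1, and of the others Spc25 is not printed. Capitals mark CCAAT or its reverse complement ATTGG, and TTTGAA or TTCAAA.
Top2a, chr11:99024190-99024339, minus strand: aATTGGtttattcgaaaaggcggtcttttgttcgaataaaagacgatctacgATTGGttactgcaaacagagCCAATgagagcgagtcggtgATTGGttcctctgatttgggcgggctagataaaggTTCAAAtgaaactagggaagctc
Hmmr, chr11:40733438-40733587, minus strand: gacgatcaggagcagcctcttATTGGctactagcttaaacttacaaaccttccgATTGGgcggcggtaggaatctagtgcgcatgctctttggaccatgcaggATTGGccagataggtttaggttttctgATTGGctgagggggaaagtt
Cenpf, chr1:189688087-189688236, minus strand: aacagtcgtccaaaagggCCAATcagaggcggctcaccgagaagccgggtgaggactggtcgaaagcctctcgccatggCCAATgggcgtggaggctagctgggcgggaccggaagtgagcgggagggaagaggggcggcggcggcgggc
Eomes, chr9:118478039-118478188, plus strand: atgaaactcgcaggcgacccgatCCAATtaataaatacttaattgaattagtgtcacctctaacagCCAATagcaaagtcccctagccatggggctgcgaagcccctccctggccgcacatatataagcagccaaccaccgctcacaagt
Gadd45g, chr13:51846525-51846674, plus strand: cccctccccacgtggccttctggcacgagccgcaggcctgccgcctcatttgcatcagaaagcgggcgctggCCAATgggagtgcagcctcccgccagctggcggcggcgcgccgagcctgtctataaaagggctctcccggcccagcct
Neurog1, chr13:56252181-56252330, minus strand: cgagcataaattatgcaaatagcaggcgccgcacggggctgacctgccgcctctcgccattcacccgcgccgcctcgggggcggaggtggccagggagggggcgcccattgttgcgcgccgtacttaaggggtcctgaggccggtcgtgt

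Top2a and Hmmr held 4 CCAAT matches each, Aspm 3, Cenpf and Spc25 2 each, Prc1 1, and Nusap1 and Sgol2 0, so that the genes shown are not typical of all 8. Top2a alone of these held TTTGAA, with 1 match. Eomes held 2 CCAAT matches, Gadd45g 1 and Neurog1 0. Over the G2 and M phase list, 46 of 52 genes had a promoter in the RefSeq table, and 73.9% of these held CCAAT and 32.6% TTTGAA on either strand. The shares were 63.6% and 12.1% in the S phase list, 28.6% and 0% in the intermediate progenitor list, and 25.3% and 9.20% over all 27025 promoters of the table. Over the 2533 promoters of genes tested for a slope in label 7 they were 31.8% and 5.68%. 2 further motifs were searched, the E-box CAGATG and the T-box motif AGGTGTGA, which no promoter of the 5 matched markers held and which stood in 8.85% and 0.651% of all promoters. Mybl1 was not matched. A match is a run of letters and not a binding site.

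Within label 7 the cells spread over the cycle. In cells thinned to 1000 UMIs the median was 10 UMIs from the S phase list and 26 from the G2 and M phase list, against 2 and 3 in label 4, 11 and 20 in label 3, 6 and 36 in label 10 and 1 and 2 in label 5. The middle 50% of label 7 cells spanned 6 to 15 S phase UMIs and 18 to 37 G2 and M phase UMIs. More UMIs of the G2 and M list than of the S list were found in 80.0% of label 7 cells (75.9 to 83.8), in 77.6% of label 3 cells (74.4 to 80.5) and in 99.3% of label 10 cells (97.9 to 99.8). All 421 thinned cells of label 7 had at least 1 UMI of the G2 and M list. In 58.9% of them Eomes was found together with at least 5 such UMIs, against 17.9% in label 4, 1.36% in label 3 and 1.47% in label 10. Since the labels were clustered on these genes, the values describe the label, and no cell is called cycling from them alone. By sample the share of cells with more G2 and M than S UMIs was 95.2% at E10.5 (76.2 to 99.9), 78.8% at E12.5, then 82.7% and 80.0% at E14.5, 75.8% at E15.5 and finally 78.6% at E18.5 (49.2 to 95.3), and their intervals overlap.

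**Figure D3:**
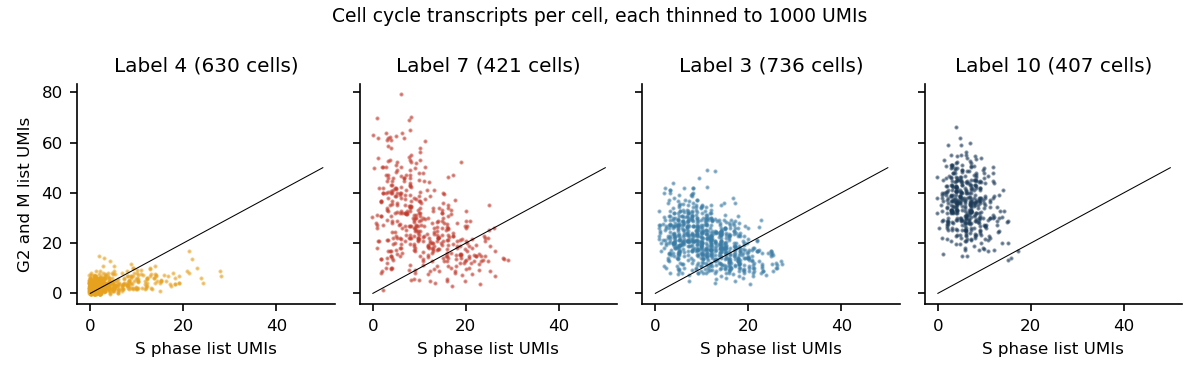
UMIs of the S phase list (horizontal) and of the G2 and M phase list (vertical) per cell, with each cell thinned to 1000 UMIs and a small shift added to separate points; the line marks equal counts. Most cells of label 4 lie near the origin, label 7 spreads from high S to high G2 and M counts like label 3 but reaches higher, and nearly all cells of label 10 lie above the line.

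The main comparison asked which genes of label 7 changed with the stage. Slopes were fitted over the 6 samples with edgeR's quasi-likelihood test, in log2 units per day, where -1 means that the level is divided by 2 each day. Of 3333 genes that passed the count filter, 28 or 0.84% rose and 24 or 0.72% fell at a Benjamini-Hochberg adjusted p under 0.05, 52 or 1.56% in all, and the median slope was -0.004. At an unadjusted p under 0.05 there were 396 genes, and DESeq2 called 58, of which 47 were among the 52. The count was 45 without the library assigned by inference and 54 without the cells with alike barcodes. It was 18 without E10.5, 17 without E12.5 and 4 among cells with at most 5% mitochondrial UMIs, a fit that holds only 4 samples, E12.5 to E15.5.

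Several genes of the intermediate progenitor list fell with stage: 8 of 16 that passed the filter fell and none rose, with a median slope of -0.29, against 0.72% falling and -0.004 over all tested genes. The count describes the list and is no test of it, since the list was chosen with earlier results of these data known. Of the 8, Neurog1, Dll1 and Dll3 were too low to test without E12.5, 1 of the 2 earliest samples, where they were highest. Neurog1 was at 343 CPM at E10.5, 184 at E12.5, 24.3 and 24.2 for the replicates of E14.5, and 0 at E15.5 and E18.5, where 3 UMIs would be 21.3 and 58.7 CPM. The 2 earliest samples lay above all later ones, and the slope was -1.01 ± 0.14 per day (SE, adjusted p = 7.08e-04). The gene passed the count filter only through E10.5 and E12.5 and was too low to test without either. Nhlh1, a bHLH factor of newborn neurons, was at 452, 239, 97.1, 48.4, 21.3 and 19.6 CPM in the same order. The last 3 values were 2, 3 and 1 UMIs, so that E14.5 replicate 2 and E18.5 lay below the floor of 3 UMIs. The Nhlh1 slope of -0.69 ± 0.09 (adjusted p = 7.08e-04) was called with any 1 sample left out, between -0.82 and -0.60. The Notch ligand gene Dll1 was at 388, 138, 82.5, 48.4, 28.4 and 0 CPM, with a slope of -0.69 ± 0.10 (adjusted p = 7.08e-04). Without E10.5 it was -0.68 (adjusted p = 0.124), and without E12.5 the gene was too low to test. Dll1 held 2 UMIs in E14.5 replicate 2 and 0 at E18.5, below the floor.

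The other falls of this list were Dll3 (-0.71), a Notch ligand that acts within the cell, Mfng (-0.40), a glycosyltransferase that modifies Notch, Hes6 (-0.34), which counters Hes1, and Elavl4 (-0.27), an RNA-binding protein of neurons. The calls of Mfng, Hes6 and Elavl4 were each lost without E10.5, at slopes of -0.49, -0.29 and -0.37, those of Mfng and Elavl4 also without E12.5 or E14.5 replicate 1, that of Elavl4 also without E14.5 replicate 2 or E18.5, and Dll3 was too low to test without E10.5, E12.5, E14.5 replicate 1 or E15.5. Eomes itself was at 1617, 962, 1073, 799, 952 and 763 CPM, with a slope of -0.12 ± 0.05 that did not pass (adjusted p = 0.349). Neurog2 (-0.07 ± 0.06, adjusted p = 0.701), Insm1 (0.11 ± 0.09, 0.647), Btg2 (-0.30 ± 0.08, 0.0910) and Neurod1 (0.10 ± 0.08, 0.673) did not pass either. Thinned shares gave the same picture for Eomes: 61.9% of label 7 cells at E10.5, 59.8% at E12.5, 58.7% and 50% at E14.5, 57.6% at E15.5 and finally 57.1% at E18.5. For Neurog1 they were 14.3%, 13.3% and 1.33% in the first 3 samples and 0% in the last 3, which with 10, 33 and 14 thinned cells allows shares with a UMI at this depth of up to 30%, 9.09% and 21.4% and sets no limit on the cells that express it. Before thinning, E14.5 replicate 2 held 1 UMI of Neurog1.

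The proneural and Notch list shares 8 of its genes with the list above. It had 7 falls and no rise among 14 genes that passed the filter (median -0.32), against 0.72% falling over all tested genes. This count is likewise no test, and Neurog1, Dll1, Dll3 and Nhlh2 were too low to test without E12.5. Nhlh2, a bHLH factor related to Nhlh1, had the steepest slope of all genes named here. It was at 750 CPM at E10.5, 80.9 at E12.5, 38.8 and 0 at E14.5, 14.2 at E15.5 and finally 0 at E18.5, and the slope was -1.22 ± 0.12 (adjusted p = 3.17e-05). E10.5 stood far above the rest, and without it, or without E12.5, E14.5 replicate 1 or E15.5, the gene was too low to be tested. Nhlh2 is also 1 of 8 measured Cajal-Retzius markers, whose summed level in label 7 was 1093 CPM at E10.5 and 0 to 110 CPM in the other samples, with Trp73 at 0 throughout. Nhlh2 itself held 750 of the 1093 CPM. Label 13, the label proposed as Cajal-Retzius cells, had the highest mean level of Nhlh1 over all labels (207 CPM). Cdkn1c reached 1818 CPM there in its highest sample. The part of such transcripts in the falls of Nhlh2, Nhlh1 and Cdkn1c was not tested. The Notch effectors did not pass: Hes5 was at 262, 1069, 884, 1744, 63.9 and 19.6 CPM (slope -0.26 ± 0.22, adjusted p = 0.669), high at E12.5 and E14.5 and low at E10.5, E15.5 and E18.5, a course that a straight line does not describe.

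Among regulators of cell cycle exit and G1, 3 of 15 genes that passed the filter fell and 1 rose (median -0.05). Over all tested genes 0.72% fell and 0.84% rose. Gadd45g was at 1508 CPM at E10.5, 1101 at E12.5, 549 and 605 for the replicates of E14.5, 92.3 at E15.5 and finally 137 at E18.5. The 2 latest samples lay below all earlier ones, and the slope was -0.52 ± 0.09 per day (adjusted p = 0.00397), called with any 1 sample left out and between -0.62 and -0.42. In the libraries of suffix 1 the levels were 1933, 1193, 523, 59.8 and 117 CPM at E10.5, E12.5, E14.5, E15.5 and E18.5, with a slope of -0.72 (adjusted p = 0.00692). In the other libraries they were 956 at E10.5, 1028 at E12.5, 577 and 605 at E14.5, 173 at E15.5 and finally 158 at E18.5. The thinned share of cells with Gadd45g went from 61.9% at E10.5 over 50%, 41.3%, 30% and 18.2% to 7.14% at E18.5. Among cells with at most 5% mitochondrial UMIs the slope was -0.69 (adjusted p = 0.0728).

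Cdkn1c, the imprinted inhibitor p57, was at 2511, 371, 384, 48.4, 35.5 and 19.6 CPM, with a slope of -0.90 ± 0.11 (adjusted p = 3.52e-04), and E10.5 was far above the others. Without E10.5 the slope was -0.66 and the call was lost (adjusted p = 0.153). Gadd45a fell as well (-0.59 ± 0.13, adjusted p = 0.0300), a call lost without either E14.5 replicate or E15.5 and not made by DESeq2 (adjusted p = 0.265), in a gene too low to test without E10.5 or E12.5. The kinase gene Cdk6, a partner of D-type cyclins, rose: it was at 0, 9.13, 34.0, 72.6, 263 and 176 CPM, and the slope was 0.78 ± 0.19 (adjusted p = 0.0471). That call was lost without E10.5, E12.5 or either replicate of E14.5, with slopes between 0.57 and 1.65 over the samples left out, and the gene was too low to test without E15.5. Ccnd1 (-0.47 ± 0.12, adjusted p = 0.0576) and Ccnd2 (-0.05 ± 0.05, adjusted p = 0.739) did not pass.

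The cell cycle machinery showed almost no called trend. None of 50 tested G2 and M phase genes, 17 mitotic kinesin and cytokinesis genes or 25 cohesin, shugoshin and spindle checkpoint genes passed, with median slopes of 0.03, 0.03 and 0.02. Top2a was at 2411, 2397, 2204, 1550, 3494 and 3014 CPM (0.06 ± 0.05, adjusted p = 0.682), Mki67 had a slope of 0.11 ± 0.06 (0.515), Sgol2 of 0.13 ± 0.06 (0.414) and Kif14 of 0.06 ± 0.14 (0.897). Of 42 S phase genes, 1 rose, the primase gene Prim1 (0.23 ± 0.05, adjusted p = 0.0460), a call that was lost with any 1 sample left out, and the median was 0.11. Of 7 MuvB, Myb and E2F regulators Mybl1 alone rose. It was at 72.2, 58.7, 112, 96.9, 206 and 333 CPM, the 2 latest samples above the rest, with a slope of 0.37 ± 0.08 (adjusted p = 0.0319). The call was lost without E12.5 (adjusted p = 0.188), E14.5 replicate 1 (0.0570), E14.5 replicate 2 (0.0517), E15.5 (0.0610) or E18.5 (0.258), with slopes from 0.30 to 0.45.

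The summed lists were compared with day in the same way as the shares. S phase transcripts made up 0.808% of label 7 UMIs at E10.5, 1.04% at E12.5, 0.967% and 0.942% at E14.5, 1.33% at E15.5 and finally 1.31% at E18.5. The correlation was r = 0.81 (exact permutation p = 0.0333, adjusted over the 4 relations 0.133) and rho = 0.75 (p = 0.0944, adjusted 0.187), and r was 0.47 over the 4 samples between the earliest and the latest. G2 and M phase transcripts were between 2.69% and 3.20%, with r = 0.72 (exact permutation p = 0.111, adjusted 0.148) and rho = 0.70 (p = 0.139). Neither relation passed after adjustment, and the first rests on the earliest and latest samples.

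Among the rises were Zbtb20, Nfix and Nfic, transcription factor genes. Zbtb20, a zinc finger factor of late cortical progenitors and hippocampus, was at 54.2, 142, 291, 363, 774 and 1918 CPM, in the order of the stages without exception. Its slope of 0.66 ± 0.06 (adjusted p = 1.44e-05) was called with any 1 sample left out, between 0.65 and 0.75. Nfix and Nfic, nuclear factor I genes, had slopes of 0.64 ± 0.12 (adjusted p = 0.0131) and 0.63 ± 0.13 (0.0187). Nfix was at 9.03 and 79.6 CPM at E10.5 and E12.5 and between 504 and 1077 CPM later, so that the groups before and from E14.5 on do not overlap. Its call was lost without E10.5 (slope 0.50, adjusted p = 0.124) or E12.5, and that of Nfic without E12.5, E14.5 replicate 1 or E18.5, with Nfic too low to test without E15.5.

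Of the neuron list 3 of 25 genes rose and 1 fell (median 0.10), against 0.84% rising and 0.72% falling over all tested genes. Sema3c, a secreted guidance cue, rose at 0.84 ± 0.15 (adjusted p = 0.00702) from 0 CPM at E10.5 to 372 CPM at E18.5 but was too low to test without E12.5, E14.5 replicate 1, E15.5 or E18.5. Pcp4, a calmodulin-binding protein, rose at 0.70 ± 0.11 (adjusted p = 0.00301), and Nrn1, the neurite gene neuritin, at 0.37 ± 0.09 (0.0396). Tubb3, the neuronal beta tubulin, fell from 1472 CPM at E10.5 to 176 CPM at E18.5 (-0.43 ± 0.07, adjusted p = 0.00301). Mpped1, a metallophosphoesterase gene of the cortex, rose at 0.81 ± 0.17 (adjusted p = 0.0260). The calls of Pcp4 and Nrn1 were lost without E18.5 or with DESeq2 (Pcp4, adjusted p = 0.110 and 0.0988) and without E10.5, E12.5, E14.5 replicate 1 or E15.5 (Nrn1), that of Tubb3 without E10.5 (-0.41, adjusted p = 0.109) and that of Mpped1 without E12.5, E14.5 replicate 1 or E15.5. Cttnbp2, chosen after its values were seen because it was called with any 1 sample left out, rose from 9.03 CPM at E10.5 to 431 CPM at E18.5 (slope 0.58 ± 0.08, adjusted p = 7.08e-04).

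Egr1, an immediate early gene, was at 0, 0, 9.71 and 0 CPM up to E14.5 and at 305 and 294 CPM at E15.5 and E18.5, with the steepest rise (1.07 ± 0.25, adjusted p = 0.0396). DESeq2 did not call it (adjusted p = 0.407), and the call did not outlast the loss of any 1 sample: it was lost without E10.5, E12.5 or either replicate of E14.5, and the gene was too low to test without E15.5 or E18.5. It was the 1 riser among 9 tested immediate early and stress genes. These 2 samples also had median mitochondrial shares of 6.02% and 7.46%, against 1.61% to 3.37% at E12.5 and E14.5, while E10.5, with Egr1 at 0, had 6.22%; the part of this in the result was not tested.

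Further falls were those of Igf2bp1, Igf2bp3, St18, Phldb2 and Vim. The oncofetal RNA-binding proteins Igf2bp1 (-0.55 ± 0.09, adjusted p = 0.00301) and Igf2bp3 (-0.42 ± 0.08, 0.0141) fell. They were 2 of the 4 early-stage genes that passed the filter, against 0.72% falling over all tested genes. Both calls were lost without E10.5 (-0.35 and -0.26). St18, a Myt family zinc finger factor (-0.88 ± 0.12, adjusted p = 6.67e-04), fell from 397 CPM at E10.5 to 19.6 CPM at E18.5 and was too low to test without E10.5 or E12.5. Phldb2, a protein of the cell cortex, was at 352, 175, 63.1, 96.9, 21.3 and 0 CPM, and its slope of -0.71 ± 0.10 (adjusted p = 7.08e-04) was called with any 1 sample left out. Vim, the intermediate filament of radial glia, was the 1 gene of 12 tested radial glia genes that fell (-0.37 ± 0.07, adjusted p = 0.0114), from 1002 CPM at E10.5 to 117 CPM at E18.5; without E18.5 the slope was -0.33 (adjusted p = 0.0819). Of the 24 falls 19 could be tested without E10.5, all with the same sign, and 5 were still called. Of the 28 rises all kept their sign and 10 their call.

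**Figure D4:**
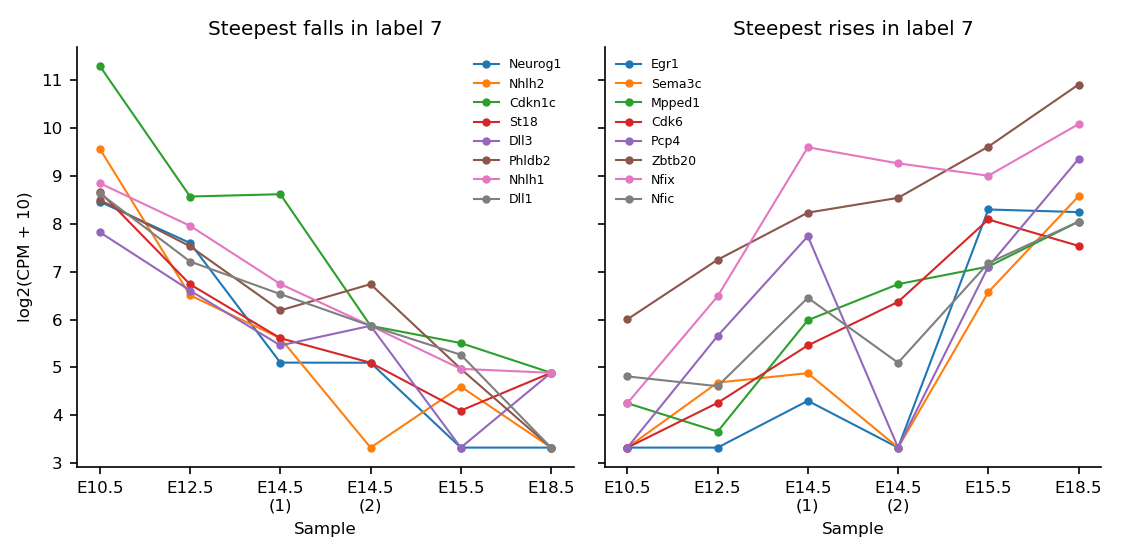
Level as log2(CPM + 10) in label 7 of the 8 genes with the steepest called falls (left) and rises (right), for the 6 samples used; each point is 1 sample and lines join the points of a gene. The falls start from their highest value at E10.5, and the rises reach theirs at E15.5 or E18.5.

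Markers of other cell types were summed in label 7. The Cajal-Retzius markers, given above beside Nhlh2, reached 1093 CPM at E10.5, of which Nhlh2 itself held 750 CPM. Levels were lower for the other lists. Over 10 endothelial and mural markers the summed level was 0 to 9.03 CPM with 9 genes at 0, and over 10 microglia markers 0 to 19.6 CPM with 8 at 0. It was 0 to 19.6 CPM over 10 mesenchymal markers, 0 to 7.10 over 6 oligodendrocyte lineage markers with Sox10 at 0, 0 to 117 over 13 interneuron markers with Gad1, Lhx6 and Nkx2-1 at 0, 0 to 117 over 10 cortical hem and choroid markers with Ttr at 0, and 18.3 to 96.9 over 9 erythroid markers. None of the 7 lists other than the Cajal-Retzius list had a gene that passed the filter for the slope. Summed early-stage genes were at 3224 CPM at E10.5 and 274 to 748 CPM in the other samples.

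The last question was whether the trends of label 7 differed from those of the compared labels, tested as the interaction of label and day with the sample as a block. Against label 4, 15 of 5464 genes (0.275%) differed in slope over 5 samples, 7 with a higher slope in label 7 (0.128%) and 8 with a lower one (0.146%). Gadd45g had the clearest difference. In label 7 it was at 1101, 549, 605, 92.3 and 137 CPM from E12.5 to E18.5 and in label 4 at 728, 1011, 1057, 835 and 790 CPM. Label 7 was thus above label 4 at E12.5 and below it in the other 4 samples, and the slope of label 7 was lower by 0.77 ± 0.10 per day (edgeR's quasi-likelihood test, adjusted p = 1.01e-11). Nhlh1 (-0.88 ± 0.20, adjusted p = 0.00509), Ddit4 (-0.66 ± 0.14, 0.00229) and Vim (-0.49 ± 0.10, 4.23e-04) also had lower slopes in label 7. Higher slopes in label 7 were fitted for Esco2, a cohesin acetyltransferase (2.46 ± 0.46, 8.80e-05), Birc5, or survivin (1.89 ± 0.43, 0.00690), Rad51ap1, a recombination factor (1.59 ± 0.39, 0.0189), and Tyms, thymidylate synthase (1.10 ± 0.20, 5.63e-05). In these 4 genes the label 4 level was highest at E12.5 and at or near 0 in later samples for 3 of them: Esco2 was at 34.8, 1.55, 0, 0 and 0 CPM in label 4, Birc5 at 32.1, 0, 0, 4.57 and 0 CPM and Rad51ap1 at 37.5, 3.11, 0, 4.57 and 0 CPM, so that their differences rest on E12.5 and on few counts. DESeq2 gave 0.68 for Esco2, 0.34 for Birc5 and 0.95 for Rad51ap1. Tyms was at 241, 374, 242, 369 and 372 CPM in label 7 and at 131, 43.5, 36.8, 18.3 and 0 CPM in label 4. All 8 named differences against label 4 lost their call without E12.5, where Gadd45g had a difference of -0.58 (adjusted p = 0.728) Nhlh1 of -0.37, Esco2 of 0.61 and Rad51ap1 of 0.34, and that of Birc5 turned to -0.51. DESeq2 called none (103 genes at an unadjusted p under 0.05), and without the sample block 2 genes were called.

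Against label 3, 7 of 4050 genes (0.173%) differed in slope over 5 samples from E10.5 to E15.5, 2 higher (0.0494%) and 5 lower (0.123%) in label 7. Vim fell in label 7 from 1002 to 213 CPM and was between 1396 and 1756 CPM in label 3 (difference -0.35 ± 0.08, adjusted p = 0.0485). The neuron genes Stmn2 (-1.23), Nsg2 (-0.91) and Map2 (-0.73) had lower slopes in label 7, and Mpped2 a higher one (0.80), all at the same adjusted p. A lower slope is not always a fall: Nsg2 was at 235, 522, 408, 557 and 561 CPM in label 7 and at 0, 20.6, 76.8, 117 and 54.0 CPM in label 3. Stmn2, Nsg2 and Map2 were all at 0 in label 3 at E10.5, a sum of 28 cells. Without E10.5 their differences were -1.05, -0.88 and -0.52. No named call was kept without E10.5, and without E12.5 Stmn2 was at -1.97, Map2 at -1.24 and Nsg2 at -0.41; further, DESeq2 called no gene (118 at an unadjusted p under 0.05), nor did the fit without the sample block.

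Against label 10, 21 of 5110 genes (0.411%) differed over 5 samples from E12.5 on, 7 higher (0.137%) and 14 lower (0.274%) in label 7. Mpped1 was at 2.61, 53.4, 96.9, 128 and 254 CPM in label 7 and at 35.0, 12.5, 23.8, 4.72 and 0 CPM in label 10, moving in opposite directions (difference 2.73 ± 0.47, adjusted p = 3.29e-04). Its level in label 7 at E12.5 was 2 UMIs. The Mpped1 call was lost without the sample block (1.59) and without E12.5 (2.33). Cdk6 (1.18 ± 0.27, adjusted p = 0.0161), Frmd4b (1.14 ± 0.27, 0.0236) and Gria2, an AMPA receptor subunit (0.56 ± 0.12, 0.0124), also had higher slopes. Lower slopes included Igfbp2, an insulin-like growth factor binding protein (-0.76 ± 0.14, 6.17e-04), Scg3 (-0.82 ± 0.15, 6.17e-04), Amotl2 (-0.89 ± 0.22, 0.0418) and Fos (-0.77 ± 0.16, 0.00604). Fos reached 3386 CPM in label 10 at E18.5 and 157 CPM in label 7. Without E18.5 a single gene of all tested was called, and without E12.5 3 of the 8 named here, with Frmd4b at 3.44 and Igfbp2 at -1.80; DESeq2 called 4 genes and the fit without the sample block 3. Of the 6 markers, Neurog1, Mybl1, Sgol2, Eomes and Kif14 had no called difference of slope against any of the 3 labels in which they were tested. Outside the ranked genes, Top2a (0.83 ± 0.14, adjusted p = 1.39e-05) and Hes5 (-0.46 ± 0.11, 0.0287) also differed against label 4 in edgeR's quasi-likelihood test. Top2a in label 4 was highest at E12.5, at 137 CPM. Against label 10, Hes5 (-0.59 ± 0.12, 0.00194) and Btg2 (-0.65 ± 0.16, 0.0418) differed. Fits of these differences with 1 sample left out are not given.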

How the data were processed

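The authors deposited UMI counts, in whole numbers, for 21862 genes and 10261 cells of 12 libraries, with the cluster number and library of each cell. Per the submitters' processing notes and the labels, the genome was mm10 and the tools were Drop-seq tools 3.1 and Seurat 3.1.5; the aligner, annotation and counted strand are not given in the sources used here. No deposited cell had fewer than 501 genes or a mitochondrial share above 9.996%.

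Counts were summed per sample and label where at least 10 cells were present. Slopes on embryonic day, and their differences between labels with the sample as a block, were tested with edgeR 4.0.16 (TMM scaling, filterByExpr, glmQLFTest, two-sided) and adjusted by Benjamini-Hochberg over all genes tested at 0.05. DESeq2 1.42.0 was the alternative. SEs were the slope divided by the root of F. Levels are CPM over the plain sum, and level ratios are log2 of CPM + 10, described without a test. The steps were tested on simulated data. Correlations used exact permutations. Doublets were called with Scrublet at an expected rate of 5% and left out only in an alternative.

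The members and gene lists were chosen with earlier results of these data known. Named genes were the 6 markers; of the called genes whose mean was 50 CPM or more, the 8 that fell and the 8 that rose most steeply; up to 4 called members of each list in each direction; the 4 largest called slope differences in each direction; the 8 largest level ratios in each direction with at least 100 CPM in the higher label and the same direction in every sample; and 20 further genes of the progenitor types and the cycle. Mitochondrial, ribosomal, haemoglobin and sex-linked genes and unnamed models were left out of the ranked genes. Leaving out 1 library of E14.5, handling alike barcodes and adding E16.5 were alternatives chosen after seeing the data.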

Additional observations from a re-analysis of the deposited data

Results flagged for a closer look

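The 21 ranked slope differences between label 7 and another label in the same samples were picked from the called genes given above. The test was the interaction of label and day with edgeR's quasi-likelihood test. That all 21 passed it follows from this choice and is no further support. The DESeq2 Wald test called Mpped1 and Scg3 against label 10 (adjusted p = 0.0115 and 0.0392) and none of the others. The values are label 7 minus the other label, in log2 units per day. Against label 4 they were 2.46 for Esco2, 1.89 for Birc5, 1.59 for Rad51ap1, 1.10 for Tyms, -0.88 for Nhlh1, -0.77 for Gadd45g, -0.66 for Ddit4 and -0.49 for Vim. Against label 3 they were 0.80 for Mpped2, -1.23 for Stmn2, -0.91 for Nsg2, -0.73 for Map2 and -0.35 for Vim. Against label 10 they were 2.73 for Mpped1, 1.18 for Cdk6, 1.14 for Frmd4b, 0.56 for Gria2, -0.89 for Amotl2, -0.82 for Scg3, -0.77 for Fos and -0.76 for Igfbp2. None of these 21 calls held with every single sample left out: those against label 4 were all lost without E12.5, those against label 3 without E10.5, and 7 of 8 against label 10 without E18.5.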

How the results depend on the processing

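Label 7 rested on few cells outside E12.5, E16.5 had too few to be fitted, and only E14.5 had 2 samples, so that a slope separates stage from sample only as a trend. The count of 52 genes with a called slope became 159 without a low count filter, 18 with at least 20 cells per sample, 16 after thinning to the smallest sum, 4 among cells with at most 5% mitochondrial UMIs and 31 in libraries with suffix 1. With the E14.5 samples summed, the count was 35. The count lay between 17 and 59 with 1 sample left out. The cause of these changes was not tested.

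Called slope differences against label 4 (15) went to 2 with no replicate block and 0 with DESeq2, and to between 1 and 18 with 1 sample left out. Against label 3 (7) they went to 0 with no replicate block, 0 with DESeq2, 0 with at least 20 cells, and 0 to 12 with 1 sample left out. Against label 10 (21) they went to 3 with no replicate block, 4 with DESeq2, and 1 to 28 with 1 sample left out. For the slope within label 7 no paired analysis was possible because each sample gives 1 sum and the replicate numbers of the labels pair no samples across stages. Genes at least 2-fold lower than in label 4 in every sample (2) became 5 with a pseudocount of 1 CPM, 7 with at least 20 cells and 4 with doublets left out. Those lower than in label 3 (37) became 57, and those higher than in label 10 (58) became 105, with at least 20 cells. With 1 sample left out, r lay between -0.76 and -0.27 for the share of all cells, -0.89 and -0.33 for the share of labels 4 and 7, 0.69 and 0.88 for the S phase list and 0.60 and 0.86 for the G2 and M phase list.

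Single genes turned direction as follows. Slopes within label 7 became -0.017 for Kif14 with DESeq2, -0.19 for Neurod1 with at least 20 cells, -0.030 for Sox2 after thinning, and 0.0073 for Neurog2 and -0.25 for Neurod1 in suffix 1 libraries. Among cells with at most 5% mitochondrial UMIs they became 0.032 for Eomes, -0.018 for Prim1, 0.0016 for Igf2bp1, -0.051 for Cenpf, -0.33 for Mcm3, -0.13 for Sox2 and -0.51 for Neurod1. With 1 sample left out they lay between -0.0020 (without E10.5) and 0.23 for Pax6, -0.81 and 0.082 (without E18.5) for Hes5, and -0.24 (without E18.5) and 0.20 for Neurod1. The Kif14 difference against label 4 became -0.085 with no replicate block, -1.16 with DESeq2 and -0.036 without a low count filter. With 1 sample left out it lay between -1.18 (without E15.5) and 2.23, and that of Birc5 between -0.51 (without E12.5) and 3.03. Against label 3 these limits were -0.16 (without E12.5) and 0.35 for Mybl1, and -0.20 (without E15.5) and 0.13 for Kif14. Against label 10, Eomes became 0.18 with DESeq2, and with at least 20 cells Sgol2 became 0.16 and Kif14 0.33. The limits with 1 sample left out were -0.57 and 2.34 (without E12.5) for Eomes, -0.10 and 0.15 (without E18.5) for Sgol2, and -0.76 and 0.30 (without E18.5) for Kif14.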
